A study of Gossypium hirsutum with 42 samples.

Results

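Sulfate uptake and assimilation was followed through 62 genes of upland cotton (Gossypium hirsutum), out of 100881 rows in the expression table. The members were every row whose description names a sulfate transporter, ATP sulfurylase, APS reductase, APS kinase, sulfite reductase, serine acetyltransferase or O-acetylserine (thiol) lyase. They comprised 32 transporters and 30 enzymes. The genotypes included 3 F1 hybrids, H (SJ48-Z98-15, high), M (SJ48-851-2, medium) and L (SJ48-DT-8, low), named for their level of yield heterosis. Their inbred parents were A (SJ48), the mother of all 3, and the fathers B (Z98-15) of H, C (851-2) of M and D (DT-8) of L. Seedlings of the 7 genotypes were raised in hydroponic Hoagland solution, and root and leaf of the same plant were taken once true leaves had fully expanded. Each genotype and tissue had 3 libraries, 42 in all, giving 9 libraries of hybrids and 12 of inbreds per tissue. The hour of harvest and the sulfur status of the plants were not given in the sources used here, and the labels name no other treatment.

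Plants take sulfate from the soil through transporters of the root surface and pass it through the vascular tissue to the shoot. In Arabidopsis, group 1 transporters carry out high-affinity uptake and phloem transport, several group 3 transporters move sulfate into chloroplasts, and group 4 transporters release it from the vacuole. ATP sulfurylase then activates sulfate to adenosine 5′-phosphosulfate (APS), which APS reductase turns into sulfite and sulfite reductase into sulfide. Serine acetyltransferase makes O-acetylserine, and O-acetylserine (thiol) lyase joins it with sulfide to form cysteine. APS kinase leads APS away from this route, to the donor used for sulfation. Transcripts of root uptake transporters and of APS reductase are known to rise when sulfur is scarce.

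Expression was given as FPKM, in which fragments are scaled by the length of the gene and by the size of the library, so that levels of different genes can be compared. Library sums lay between 391455 and 462952 FPKM, no counts were used here, and the number of fragments behind a single value is therefore unknown. Differences are on the scale log2(FPKM + 1), which understates changes of genes near 1 FPKM. A gene was called where limma gave an adjusted p below 0.05 together with a log2 difference of more than 1 in either direction. In bulk tissue, fewer cells of a type and less RNA per cell cannot be told apart. Leaf markers followed the labels, and root markers did so less clearly. Summed leaf markers (186 genes of light harvesting, photosystems and the small subunit of Rubisco) held 26800 to 35105 FPKM in leaf libraries, against 268 to 644 FPKM in root libraries. Of 37 tested root markers, 13 were higher in root, 4 were higher in leaf and the others were not called. Summed root markers held 190 to 312 FPKM in root libraries and 69.9 to 275 FPKM in leaf libraries, which overlapped. Most members have a copy of the same description on an A and a D chromosome, as their gene names show. Reads of near-identical copies could have been split between them, so the values of single copies are uncertain.

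Of the 62 members, 45 in root and 40 in leaf reached 1 FPKM in at least 3 libraries and were tested. These included 33 tested in both tissues, whereas 10 members were tested in neither. Among the transporters, 22 of 32 were tested in root and 14 of 32 in leaf, and among the enzymes, 23 of 30 in root and 26 of 30 in leaf. The descriptions of the members name transporters of group 1 (9 genes), group 3 (13 genes) and group 4 (4 genes). A further 6 carry other names, 4 of them "sulfate transporter 91" and 2 "STAS domain / Sulfate transporter family". STAS is the domain that sulfate transporters of plants carry at their C-terminal end.

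Between root and leaf, 19 of 25 tested transporters and 8 of 27 tested enzymes were called, a description without a test. Of 52 members tested over all 42 libraries, 16 were higher and 11 lower in root than in leaf, that is 51.9%, against 23.9% of all genes tested. Of these 27, 14 passed the expression limit only through the tissue where they were higher, all of them transporters except Gh_D09G2091 and Gh_D12G0722. The total and the counts by class are thus partly set by how members were admitted, and are given as a description. The group 1 transporter Gh_A05G1970 (sulfate transporter 1;3) averaged 62.5 FPKM in root and 0.416 FPKM in leaf. Its D-genome copy Gh_D05G2199 averaged 11.7 FPKM in root and 0.0718 FPKM in leaf. The single member of type 1;1, Gh_Sca065142G01, a name that places it on an unplaced scaffold, averaged 34.9 FPKM in root and 0.0448 FPKM in leaf. These were root transcripts, with log2 differences of 5.17, 3.19 and 4.48 (SE 0.116, 0.0829 and 0.206).

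Roots also held most of the STAS-type pair and of type 3;4. Gh_A05G1971 averaged 84.1 FPKM in root, the highest transporter level in either tissue, and 8.01 FPKM in leaf. Gh_D05G1223 and Gh_A05G1074, the 3;4 pair, averaged 17.1 and 16.1 FPKM in root, against 0.487 and 0.701 FPKM in leaf. Leaves, by contrast, expressed the 4.1 pair and the 91 pair. Gh_A05G3065 (4.1) averaged 0.300 FPKM in root and 10.9 FPKM in leaf. Gh_D01G1467 (91), which in Arabidopsis nomenclature is a group 3 transporter of the chloroplast, averaged 0.190 FPKM in root and 9.02 FPKM in leaf. Within type 3;1 the copies differed, since Gh_A11G1147 averaged 1.01 FPKM in root and 29.1 FPKM in leaf, while Gh_A12G0022 averaged 13.2 FPKM in root and 6.11 FPKM in leaf.

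**Figure D1:**
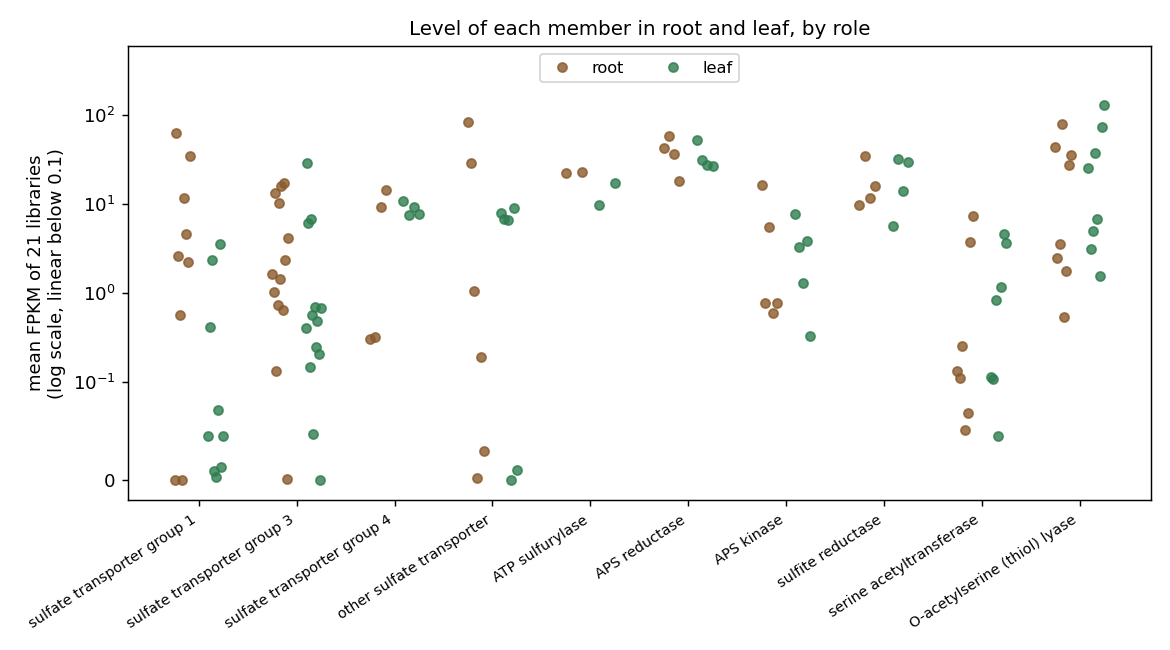
Mean FPKM of each of the 62 members over 21 root libraries (brown, left) and 21 leaf libraries (green, right), grouped by role, on a log axis that is linear below 0.1. Group 1 transporters reached 62.5 FPKM in root but no more than 3.53 FPKM in leaf, whereas APS reductases held 17.9 to 57.5 FPKM in root and 26.4 to 52.3 FPKM in leaf.

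Most enzymes were expressed in both tissues, but some serine acetyltransferases were close to absent, such as Gh_A13G1132, which was listed at 0 in 20 of 21 libraries of each tissue. The 4 APS reductases averaged 17.9 to 57.5 FPKM in root and 26.4 to 52.3 FPKM in leaf, and none was called between the tissues. The 4 sulfite reductases were likewise not called. The leading genes of isoforms A1 and B of the cysteine-forming enzyme lay in different tissues. Isoform A1 was not uniform, since its gene Gh_D09G2091 averaged 0.540 FPKM in root and 6.74 FPKM in leaf. Gh_D08G2265, the highest isoform A1 gene, averaged 79.3 FPKM in root and 37.7 FPKM in leaf. Gh_D09G2034 of isoform B, known in Arabidopsis as the plastid form, averaged 35.5 FPKM in root and 129 FPKM in leaf, the highest mean of any member. Serine acetyltransferases were low, and Gh_D03G0024 (3;2) led them in root with 7.41 FPKM. In leaf Gh_A02G1695 led them, with 4.58 FPKM. The lead among APS kinases lay with Gh_A02G1455 in both tissues, at 16.2 FPKM in root and 7.64 FPKM in leaf.

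To see what hybrids share against inbreds, the mean of the 3 hybrids was compared with the mean of the 4 inbreds. In root, 5 of 45 members were lower in hybrids and 0 were higher, that is 11.1% of the members. Over all genes tested in root, 2.12% were called in either direction and 0.847% were lower in hybrids. The 5 were all transporters, 3 of the 7 tested in group 1 and both of the STAS type, and 0 of the 23 tested enzymes were called. At an unadjusted p under 0.05 by limma and any size, 18 of the 23 enzymes and 19 of the 22 transporters differed. The share of all genes at that looser limit is not given here, so these counts do not set the members apart. The median log2 difference was -0.17 over the 45 members and 0.05 over all genes tested. The p-values measure the spread between libraries of a genotype. Hybrid libraries had a lower base-call quality than roots of A, B and C and leaves of A and B. Against those inbreds, quality and hybrid state cannot be told apart. With the genotype means as the units, 3 against 4, the count remained 5 and the same 5 genes were called, whereas with a pseudocount of 0.1 it became 9.

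Gh_A05G1970 held 12.2, 30.0 and 21.3 FPKM in H roots, 16.98, 47.6 and 16.8 FPKM in M roots and 14.4, 27.4 and 26.4 FPKM in L roots. The inbreds held 88.1, 105 and 103 FPKM in A roots, 62.6, 108 and 73.9 FPKM in B roots, 107, 65.5 and 108 FPKM in C roots and 103, 55.8 and 119 FPKM in D roots. Every hybrid library lay below every inbred library, and the log2 difference was -1.98 (SE 0.217, adjusted p = 2.43e-06). Gh_D05G2199 showed the same order at a lower level. It held 1.91, 4.07 and 2.85 FPKM in H, 3.77, 6.99 and 2.74 FPKM in M and 1.61, 4.26 and 3.13 FPKM in L roots, against 10.1 to 24.9 FPKM over the 12 inbred roots. Again no hybrid library overlapped with an inbred library, at a log2 difference of -2.10 (SE 0.158, adjusted p = 3.64e-08).

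Gh_Sca065142G01, whose Arabidopsis namesake is a high-affinity sulfate transporter of roots, had the largest log2 difference of any member. It held 5.31, 8.54 and 15.0 FPKM in H, 0, 24.1 and 2.56 FPKM in M and 5.01, 11.8 and 12.6 FPKM in L roots. The inbreds held 43.7, 64.9 and 59.4 FPKM in A, 34.4, 67.6 and 37.6 FPKM in B, 56.3, 46.5 and 56.5 FPKM in C and 56.4, 51.6 and 72.5 FPKM in D roots. The hybrid libraries were again all lower, but they were widely spread, and 1 M library listed the gene at 0. The log2 difference of -2.81 (SE 0.399, adjusted p = 3.68e-05) depends on that value through the pseudocount.

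The STAS-type genes Gh_A05G1971 and Gh_D05G2200 carry gene numbers directly after those of the 1;3 pair, on chromosomes A05 and D05. Gh_A05G1971 held 21.3, 43.1 and 32.5 FPKM in H, 34.4, 81.7 and 38.4 FPKM in M and 29.8, 56.5 and 68.8 FPKM in L roots. The inbred roots held 77.1 to 155 FPKM, so that 1 M library reached into their range. The log2 difference was -1.38 (SE 0.170, adjusted p = 8.24e-06). Gh_D05G2200 held 6.80 to 25.3 FPKM in hybrid roots and 20.5 to 66.5 FPKM in inbred roots, at a log2 difference of -1.41 (SE 0.176, adjusted p = 9.94e-06). Among inbreds this gene was higher in B (mean 55.0 FPKM) and C (mean 49.3 FPKM) than in A (mean 29.4 FPKM) and D (mean 23.6 FPKM). Against D alone, the inbred whose root libraries shared the lower base-call quality of the hybrid libraries, its difference was -0.78 and it was not called. The 4 other genes were called against D too.

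The 5 transporters varied together over the 21 root libraries, with Pearson correlations between 0.767 and 0.975 over the 10 pairs, a description of points that share their libraries and the split between hybrids and inbreds. Within M, the library of replicate 2 held the highest value of all 5 genes. Summed over the 9 group 1 members, hybrid roots held 28.3 to 87.8 FPKM (median 47.8), against 120 to 215 FPKM (median 181) in inbred roots. The 13 group 3 members summed to 55.1 to 80.3 FPKM in hybrid roots and 43.8 to 94.6 FPKM in inbred roots, which overlapped. All 32 transporters summed to 138 to 268 FPKM in hybrid roots and 309 to 553 FPKM in inbred roots. The 30 enzymes summed to 435 to 577 FPKM in hybrid roots and 401 to 647 FPKM in inbred roots. Hence the transporter sums were separate and the enzyme sums were not. Much of the transporter sums lay in the 5 called genes, so this separation is not independent of their calls. Means over inbred roots were 91.6 FPKM for Gh_A05G1970, 17.8 for Gh_D05G2199, 54.0 for Gh_Sca065142G01, 113 for Gh_A05G1971 and 39.3 for Gh_D05G2200.

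**Figure D2:**
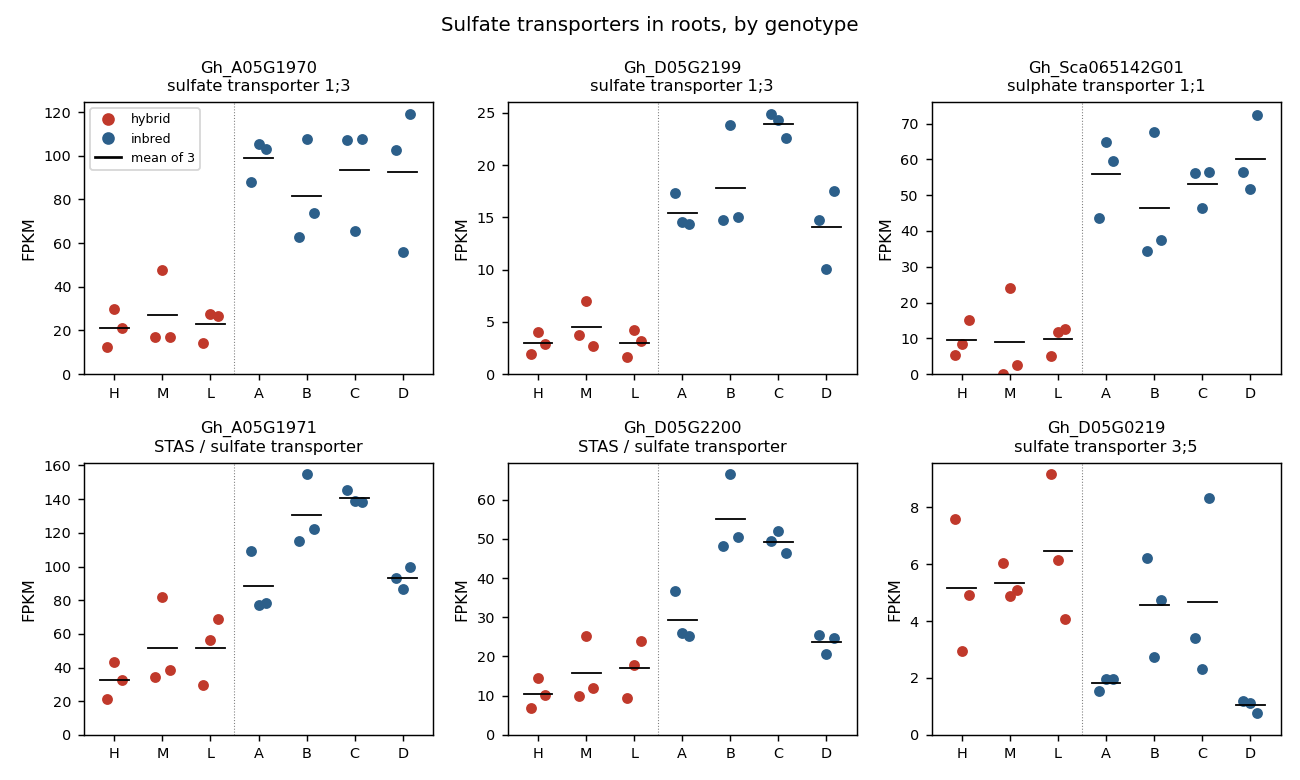
FPKM of 6 sulfate transporters in single root libraries of the hybrids H, M and L (red) and the inbreds A, B, C and D (blue), each panel with its own axis from 0, with lines at the mean of 3. In the upper panels no hybrid library reached an inbred one, while for Gh_D05G0219 the hybrids lay above A and D but overlapped with B and C.

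Other transporters of the root moved less. The 4;2 pair Gh_A10G1894 and Gh_D10G2162, tonoplast transporters in Arabidopsis, had log2 differences of -0.92 and -0.90 (adjusted p = 4.59e-09 and 2.16e-08) and missed only the limit on size. Gh_A10G1894 held 4.96 to 7.10 FPKM in hybrid roots and 9.31 to 13.9 FPKM in inbred roots, without overlap. In the opposite direction, the 3;5 pair Gh_A05G0155 and Gh_D05G0219 had log2 differences of 0.93 and 0.86, with overlapping libraries. The 10 tested group 3 members had a median of 0.06. The remaining group 1 genes, Gh_A06G1908, Gh_D06G0344, Gh_A13G0581 and Gh_D13G0546, lay between -0.65 and 0.35.

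The enzymes of the root showed differences of less than 1 on the log2 scale in either direction. The 4 APS reductases had differences of -0.75 to -0.39, all below 0, and Gh_D06G1636 held 9.71 to 16.6 FPKM in hybrids and 17.1 to 29.9 FPKM in inbreds. The APS kinase Gh_A02G1455 held 9.88 to 15.1 FPKM in hybrids and 16.3 to 22.9 FPKM in inbreds, at a difference of -0.74. Both ATP sulfurylases were below 0, at -0.62 and -0.27, and the 4 sulfite reductases lay between -0.03 and 0.21. All 7 tested O-acetylserine (thiol) lyases were above 0, at 0.02 to 0.76. Among them Gh_D09G2034 held 40.0 to 51.2 FPKM in hybrid roots and 17.2 to 35.7 FPKM in inbred roots, without overlap, and was not called on size. None of these enzymes passed both limits.

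**Figure D3:**
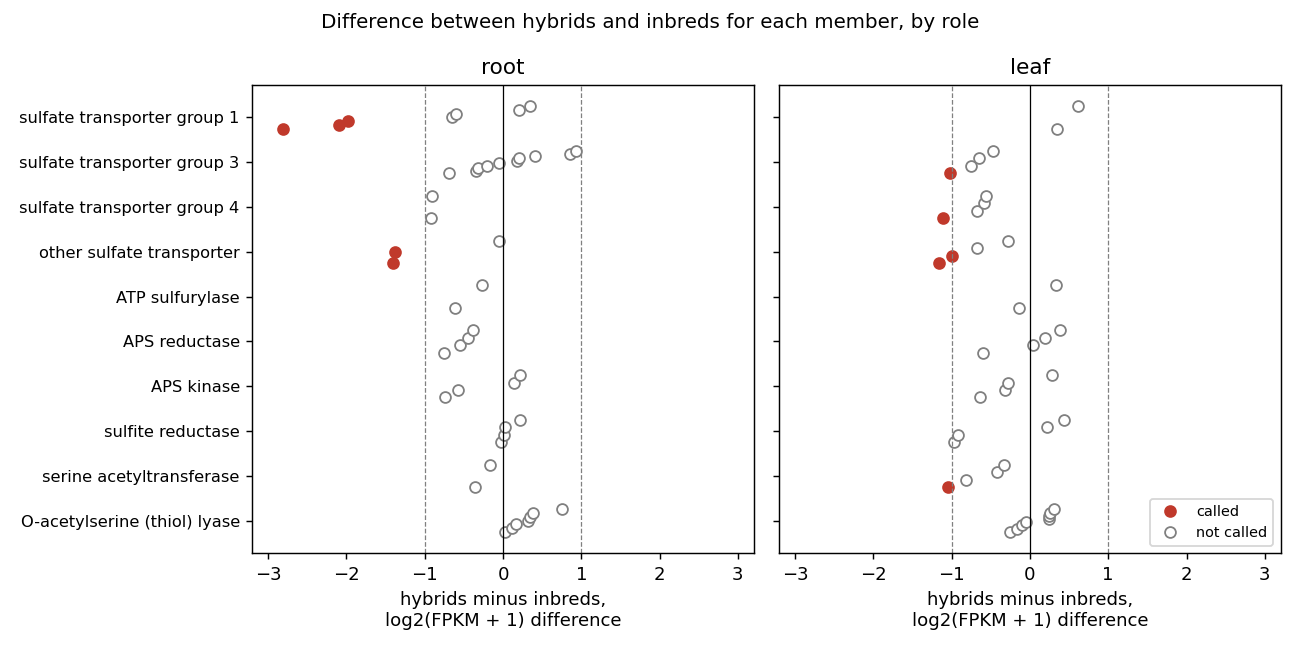
Log2(FPKM + 1) difference of hybrids minus inbreds for each tested member by role, in root (45 members, left) and leaf (40 members, right), with called members filled and dashed lines at the limits of -1 and 1. In root the 5 called members are group 1 and STAS-type transporters, and in leaf the 5 called members are 4 transporters and 1 serine acetyltransferase, all lower in hybrids.

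Each hybrid was then compared with both of its own parents, to find members that lay beyond both in one direction. The 3 triads share the A libraries and are not independent. Both parents of H and of M lacked, in root, the lower base-call quality of the hybrids. In those triads, quality and hybrid state cannot be told apart. In H roots, 4 of 45 members were lower than A and B and 0 were higher, against 1.41% of all genes beyond both parents in H. These were Gh_A05G1970, Gh_D05G2199, Gh_A05G1971 and Gh_D05G2200. For the 1;3 gene Gh_D05G2199 the log2 differences were -2.09 to A and -2.26 to B. For Gh_D05G2200 they were -1.44 to A and -2.33 to B. Gh_Sca065142G01 had -2.51 to A and -2.20 to B, of which only that to A was called (adjusted p = 0.0225 and 0.0624).

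In M roots, 4 of 45 members were lower than A and C, against 1.2% of all genes. Gh_A05G1970 (-2.0 to A, -1.88 to C), Gh_D05G2199 (-1.65 and -2.25) and Gh_Sca065142G01 (-3.65 and -3.59) were joined by Gh_D10G2162. This 4;2 gene held 7.33, 9.42 and 7.83 FPKM in M, against 15.9, 19.8 and 20.2 FPKM in A and 19.996 to 22.3 FPKM in C. The M libraries lay below both parents. The STAS-type pair was lower in M than in C but not called against A (adjusted p = 0.0673 and 0.0511).

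In L roots, 3 members were lower and 2 higher than A and D, 5 of 45 in all, against 1.49% of all genes. The lower ones were Gh_A05G1970 (-2.12 to A, -1.96 to D), Gh_D05G2199 (-2.09 and -1.94) and Gh_Sca065142G01 (-2.47 and -2.58). With a pseudocount of 0.1, Gh_Sca065142G01 was not called in L against A or D (adjusted p = 0.146 and 0.107). The higher ones were the 3;5 pair. Gh_D05G0219 held 9.15, 6.15 and 4.09 FPKM in L, against 1.54, 1.95 and 1.98 FPKM in A and 1.20, 1.12 and 0.780 FPKM in D, with log2 differences of 1.35 and 1.83. Gh_A05G0155 held 5.36, 3.26 and 3.46 FPKM in L, against 0.871, 0.935 and 0.809 FPKM in A and 0.698, 0.412 and 0.566 FPKM in D. In both genes every L library exceeded every A and D library. The other hybrids carried similar levels of Gh_D05G0219, with 7.60, 2.96 and 4.92 FPKM in H and 6.03, 4.87 and 5.10 FPKM in M. Their fathers, however, reached 6.20 FPKM in B and 8.31 FPKM in C, and the differences of 0.13 (H to B) and 0.30 (M to C) were not called. In Arabidopsis, the 3;5 protein aids transport of sulfate from root to shoot. The calls in H, M and L roots rest on 3 libraries a genotype: without replicate 3 of every genotype, 1, 1 and 3 members remained beyond both parents in H, M and L, and without replicate 1, 2, 2 and 3.

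Inbreds differed from each other in root in other genes. Of 45 members, B exceeded A in 4 and fell below it in 0 (1.82% of all genes were called), C exceeded A in 4 and fell below it in 0 (1.58%), and D exceeded A in 1 and fell below it in 1 (2.57%). These comparisons share the A libraries too. The group 1 pair of chromosome 13 was higher in B and C than in A. Gh_D13G0546 held 2.37, 5.32 and 1.98 FPKM in B and 5.89, 7.42 and 12.1 FPKM in C, against 0.804, 0.877 and 0.777 FPKM in A. The hybrids of these fathers did not carry that level, with 0.835 to 1.15 FPKM in H and 0.835 to 1.42 FPKM in M. Gh_A13G0581 held 2.34, 2.22 and 3.002 FPKM in C and at most 0.0932 FPKM in A, and was listed at 0 in all D libraries. It passed the expression limit only through B and C roots, so that its calls follow from how it was admitted.

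The isoform A1 lyase Gh_A13G0863 held 5.50, 5.40 and 4.97 FPKM in B and 5.73, 5.89 and 6.56 FPKM in D, against 1.52, 1.61 and 1.79 FPKM in A. The log2 differences were 1.25 in B and 1.42 in D (SE 0.0774 each). Their hybrids lay between the parents, with 3.41 to 3.74 FPKM in H and 3.56 to 3.72 FPKM in L. M, however, held 2.92 to 3.43 FPKM, although C was as low as A, at 1.44 to 1.71 FPKM. In D, Gh_A05G1074 of the 3;4 pair was lower, with 10.3, 9.27 and 4.88 FPKM against 24.1, 22.0 and 22.3 FPKM in A. Higher in B than in A was the APS reductase Gh_D05G1637 (1.03), and higher in C than in A were the ATP sulfurylase Gh_D02G0399 (1.15) and the 3;1 transporter Gh_A10G1034 (1.30). Without replicate 2, 1 of the 4 calls of B against A remained.

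In leaf, 5 of 40 members were lower in hybrids than in inbreds and 0 were higher, that is 12.5%. Of all genes tested in leaf, 2.56% were called in either direction and 0.934% were lower in hybrids. The members' median log2 difference was -0.30, against 0.07 over all genes. The 5 were Gh_D01G1467 and Gh_A01G2116 (both of type 91), Gh_D11G1301 (3;1), Gh_D10G2162 (4;2) and the serine acetyltransferase Gh_D01G0718. The last passed the expression limit only through inbred leaves, since no hybrid leaf exceeded 0.713 FPKM, and its call is therefore set by how it was admitted. Without it, 4 called members were left. With a pseudocount of 0.1, 8 members were called, and leaving out each replicate in turn gave 3 to 5. The limit on size decided these calls, since all 5 log2 differences lay between -1.16 and -1.0, 4 of them with adjusted p of 3.04e-07 or less and Gh_D01G0718 with adjusted p = 0.00985. Against C and D only, whose leaf libraries shared the lower base-call quality of the hybrids, 0 members were called, with differences of -0.96 to -0.57 for these 5. With genotype means as the units, Gh_A01G2116 and Gh_D11G1301 were called, and without hybrid M, 2 members.

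Gh_D11G1301 held 3.57, 5.99 and 4.69 FPKM in H, 3.44, 2.51 and 3.31 FPKM in M and 3.95, 3.68 and 4.08 FPKM in L leaves. The inbred leaves held 6.78 to 12.2 FPKM, without overlap (log2 difference -1.02, SE 0.0754, adjusted p = 1.18e-08). Gh_A01G2116 held 2.23 to 4.998 FPKM in hybrid leaves and 6.78 to 12.3 FPKM in inbred leaves, also without overlap, at -1.0 (SE 0.0961, adjusted p = 3.04e-07). Gh_D01G1467 and Gh_D10G2162, by contrast, overlapped, since leaves of some inbreds were low as well. Gh_D01G1467 held 2.98 to 4.72 FPKM in H, 2.08 to 3.75 FPKM in M and 5.42 to 5.71 FPKM in L, against 22.7 to 25.6 FPKM in A, 5.85 to 7.29 FPKM in B, 2.87 to 6.56 FPKM in C and 13.6 to 16.9 FPKM in D. Gh_D01G0718 was listed at 0 in 7 of the 9 hybrid leaves, but also in all C leaves and in 1 A and 1 B leaf.

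All 14 tested transporters except the chromosome 6 pair of type 1;3 had a log2 difference below 0 in leaf. The 4.1 gene Gh_A05G3065 held 6.40 to 10.05 FPKM in hybrid leaves and 10.1 to 16.6 FPKM in inbred leaves, at -0.59, and the 3;1 gene Gh_A11G1147 had -0.47. Summed over all transporters, hybrid leaves held 65.1 to 103 FPKM and inbred leaves 108 to 207 FPKM, without overlap. The enzymes again overlapped, with 504 to 652 FPKM in hybrid leaves and 443 to 770 FPKM in inbred leaves. Both copies of sulfite reductase on chromosome 13 missed the limit on size only, with -0.97 for Gh_A13G1875 and -0.92 for Gh_D13G2263, whereas Gh_D07G1227 had 0.43.

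Against both parents in leaf, 0 of 40 members lay beyond them in H by limma (2.3% of all genes did). At unadjusted p under 0.05 and the same limit on size, 1 member lay beyond both, and with a pseudocount of 0.1 and adjusted p, 2 members did. In M leaves 4 of 40 members were lower than A and C and 0 were higher, against 2.82% of all genes. These were the 3;1 transporters Gh_D11G1301 (-1.56 to A, -1.24 to C) and Gh_A12G0022 (-1.32 and -1.18), Gh_A01G2116 (-1.45 and -1.02) and the serine acetyltransferase Gh_A01G0700 (-1.17 and -1.10). Gh_A12G0022 held 2.22, 2.36 and 3.73 FPKM in M, against 9.50, 8.31 and 7.22 FPKM in A and 8.21, 7.47 and 6.69 FPKM in C. The M leaves thus lay below both parents. Gh_A01G0700 was low throughout, at 0.128 to 0.210 FPKM in M, 1.11 to 2.49 FPKM in A and 1.03 to 2.52 FPKM in C.

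In L leaves 2 of 40 members were lower than A and D, against 1.62% of all genes. Both were of type 91, and with a pseudocount of 0.1 the count became 4. Gh_D01G1467 held 5.71, 5.42 and 5.63 FPKM in L, against 22.7, 25.6 and 24.8 FPKM in A and 13.6, 16.9 and 15.7 FPKM in D, with log2 differences of -1.94 and -1.31. Gh_A01G2116 held 4.93, 3.48 and 2.72 FPKM in L, against 9.32, 10.8 and 12.3 FPKM in A and 8.29, 8.89 and 8.48 FPKM in D (-1.34 and -1.05). Without replicate 2 or without replicate 3, 1 of these 2 calls remained.

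In leaf, the other inbreds also differed from A. Of 40 members, B fell below A in 9 and exceeded it in 1, 25% in all (1.28% of all genes were called). In C 9 were lower and 0 higher than in A, 22.5% (1.63%), and in D 8 were lower and 0 higher, 20% (2.24%). The A libraries are shared by these comparisons, so a high A library enters each. In each of B, C and D, 2 group 1 transporters, 2 group 4 transporters and both ATP sulfurylases were lower than in A. To these were added 2 APS reductases in B and in D, 2 sulfite reductases in C, and the type 91 transporter Gh_D01G1467 in B and C.

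ATP sulfurylase, the first enzyme of assimilation, showed the widest gap. Gh_D02G0399 held 18.1, 10.1 and 9.12 FPKM in B, 4.50, 5.83 and 7.51 FPKM in C and 9.26, 9.14 and 10.6 FPKM in D, against 66.6, 42.9 and 49.2 FPKM in A leaves. The log2 differences were -2.04, -2.95 and -2.32 (SE 0.234 each, adjusted p = 2.90e-05, 4.36e-07 and 4.17e-06). Its copy Gh_A02G0333 held 2.40 to 7.56 FPKM over B, C and D and 18.7 to 32.6 FPKM in A, with -1.89, -2.46 and -2.09. The hybrids lay below A in both genes. H held 22.9, 13.0 and 13.1 FPKM of Gh_D02G0399, M 11.8, 11.9 and 10.7 FPKM and L 10.8, 10.8 and 11.3 FPKM, at -1.66, -2.09 and -2.15 to A. Of this gene, M lay wholly above its father C and L wholly above its father D, while H overlapped with its father B. Of Gh_A02G0333, the hybrids held 8.27 to 13.8 FPKM in H, 8.93 to 10.2 FPKM in M and 7.97 to 9.04 FPKM in L, each without overlap above the father, at 4.75 to 7.56 FPKM in B, 2.40 to 4.52 FPKM in C and 4.69 to 5.57 FPKM in D. In root Gh_D02G0399 held 16.8, 15.4 and 14.2 FPKM in D, 35.1, 39.1 and 33.3 FPKM in B and 40.3, 35.9 and 47.5 FPKM in C. Roots of A held 17.7, 17.6 and 18.4 FPKM of it, so the high A level was not seen there.

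Further along the route, the APS reductase Gh_D05G1637 held 28.4, 19.4 and 14.6 FPKM in B, 21.4, 31.6 and 35.0 FPKM in C and 19.7, 26.3 and 28.9 FPKM in D, against 61.0, 53.6 and 56.1 FPKM in A leaves. It was called in B (-1.46) and D (-1.17). Gh_A05G1463, of the same description, was called in B (-1.20) and D (-1.02) too. Sulfite reductase Gh_A13G1875 held 40.4, 34.3 and 37.9 FPKM in B, 35.6, 26.7 and 22.7 FPKM in C and 31.6, 33.1 and 33.5 FPKM in D, against 71.0, 63.8 and 61.8 FPKM in A. Only C was called (-1.20), as for its copy Gh_D13G2263 (-1.13). Hybrid leaves held 12.9 to 28.4 FPKM of Gh_A13G1875 and overlapped only with C among the inbreds.

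Vacuolar and group 1 transporters showed the same order. Gh_D10G2162 (4;2) held 9.15, 9.92 and 9.78 FPKM in B, 6.87, 7.59 and 7.69 FPKM in C and 4.97, 5.45 and 4.72 FPKM in D, against 23.0, 21.1 and 18.1 FPKM in A, at -1.03, -1.37 and -1.84. Gh_A10G1894 had -1.41, -1.73 and -1.39. Gh_D06G0344 (1;3) held 1.45 to 1.82 FPKM in B, 1.44 to 2.60 FPKM in C and 1.52 to 2.12 FPKM in D, against 6.54 to 8.38 FPKM in A, and Gh_A06G1908 was called in each as well. Of the 9 group 1 members, this pair alone passed the expression limit in leaf. H kept part of the A level, with 8.37, 3.92 and 4.24 FPKM of Gh_D06G0344, and was higher than B (1.24, adjusted p = 0.000533). One member ran the other way, since the lyase Gh_A13G0863 held 9.97, 9.33 and 9.53 FPKM in B leaves, against 2.16, 2.75 and 3.34 FPKM in A leaves.

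**Figure D4:**
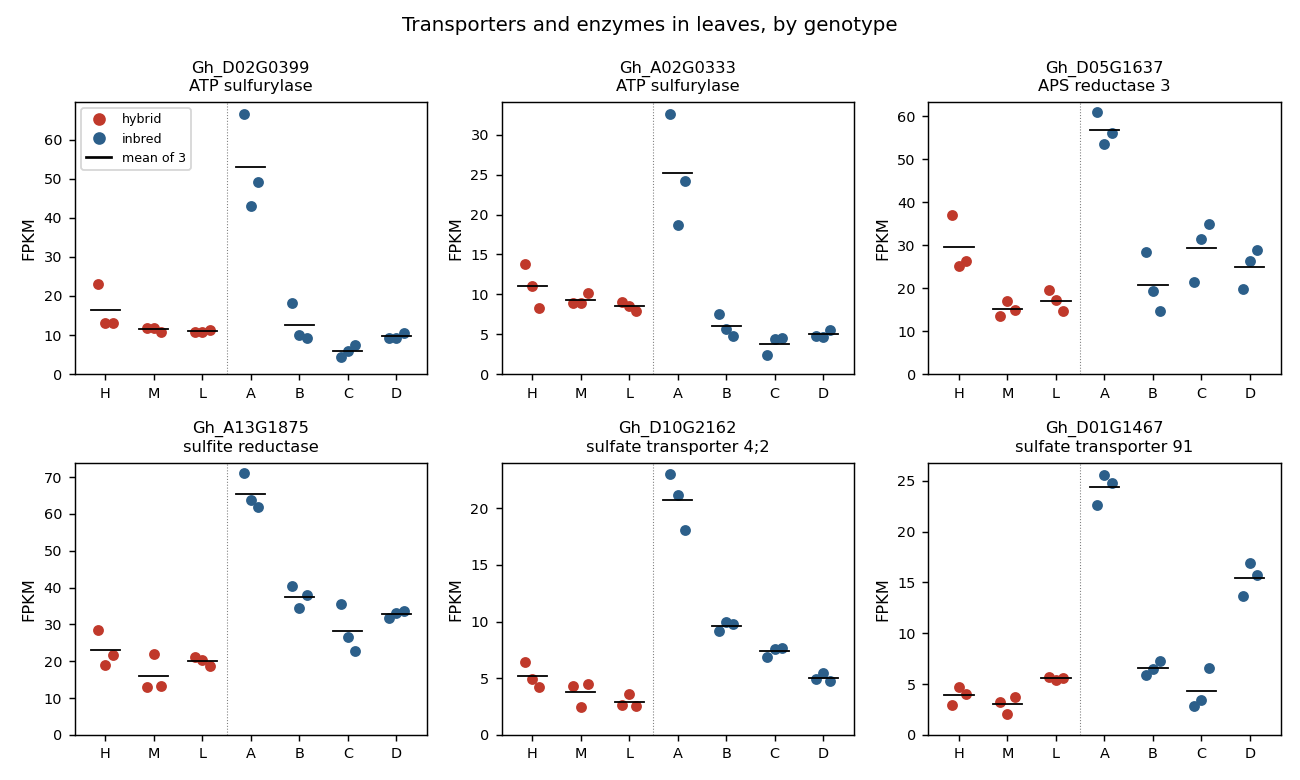
FPKM of 6 members in single leaf libraries of the hybrids H, M and L (red) and the inbreds A, B, C and D (blue), each panel with its own axis from 0, with lines at the mean of 3. Inbred A was the highest group in every panel, for example 42.9 to 66.6 FPKM of the ATP sulfurylase Gh_D02G0399 against 22.9 FPKM or less elsewhere.

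The difference between hybrids and inbreds was itself compared between root and leaf, a test added after the results were seen. For 10 of 52 members (19.2%) it differed, against 2.52% of all genes tested. In root it was the lower for 4 transporters: Gh_Sca065142G01 (-2.81), Gh_D05G2199 (-2.01), Gh_A05G1970 (-1.62) and Gh_A05G1971 (-1.11). The first 3 held at most 1.17 FPKM in any leaf, so that little difference could appear there. In root it was the higher for 6 members, among them Gh_D05G0219 (1.51), Gh_D11G1301 (1.43) and the sulfite reductase Gh_A13G1875 (1.18). Gh_D05G0219 held at most 1.32 FPKM in any leaf and Gh_D11G1301 at most 1.43 FPKM in any root, so differences there were kept small too.

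Other genes of sulfur metabolism were taken from lists of words in the descriptions and compared between hybrids and inbreds, where 2.12% of all genes in root and 2.56% in leaf were called. Glutathione synthesis (4 genes), cysteine synthases and APS reductase-like proteins (20 genes), sulfite oxidase and molybdate transport (11 genes) and the low-sulfur response (8 genes) had 0 calls in root and 0 in leaf by limma. At an unadjusted p under 0.05 by limma and any size, 15 of 30 genes in root and 16 of 33 in leaf differed. The share of all genes at that looser limit is not given here. The numbers tested in root were 4, 17, 3 and 6. In leaf they were 4, 19, 5 and 5. Of the methionine branch (42 genes, 28 tested in root and 26 in leaf), 1 gene was lower in hybrid roots and 0 differed in leaf. That gene was the methionine gamma-lyase Gh_A12G2168, which breaks methionine down, with 0.133 to 1.99 FPKM in hybrid roots (median 0.425) and 0.407 to 20.4 FPKM in inbred roots (median 1.13). Of 58 genes of sulfation and sulfolipid synthesis, 18 were tested in root and 15 in leaf. Of these, 3 of 18 were higher in hybrid roots, and of the 15 in leaf, 1 was higher and 1 lower in hybrids, larger shares than over all genes. Whether these genes passed the expression limit only through the class where they were higher was not checked. The shares are thus given as a description. The largest was a sulfotransferase in each tissue, Gh_D11G2387 in root (1.49) and Gh_D05G2698 in leaf (1.39). Both were listed at 0 in at least 1 library of each class, with medians of 0.0485 FPKM in hybrid and 0.0200 FPKM in inbred roots for Gh_D11G2387, and their libraries overlapped.

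Some rows outside the 62 are tied to the same steps by a variant spelling or by the orthology column of the table, which was noticed after the values were seen. A pair described as "slufate transporter 2;1", Gh_A10G0765 and Gh_D10G0996, carries the name of group 2, which no description of a member gives. Neither was called between hybrids and inbreds in root, with log2 differences of -0.27 and 0.17, and neither reached the expression limit in leaf. In root Gh_D10G0996 averaged 2.02 FPKM in H, 2.17 FPKM in M and 2.71 FPKM in L, against 1.85 FPKM in A, 3.66 FPKM in B, 2.80 FPKM in C and 0.450 FPKM in D. A further 8 rows carry the KEGG orthology entry of the ATP sulfurylases under other descriptions, 4 of them as zinc finger (Ran-binding) proteins and 4 as pseudouridine synthase-like proteins. Of these, 1 was called in leaf, Gh_A05G1602, with 4.98 to 7.90 FPKM in hybrid leaves and 11.3 to 17.9 FPKM in inbred leaves (-1.04, adjusted p = 1.86e-10), and 0 were called in root. Another 29 rows carry the entries of the other member enzymes, among them cysteine synthases and rows named APS kinase 3, but also others such as glutaredoxin and methyltransferase family proteins. Of these, 0 of 16 tested in root and 0 of 18 tested in leaf were called between hybrids and inbreds.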

How the data were processed

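RNA of root and leaf of 7 cotton genotypes, 3 biological replicates each, was sequenced as 42 libraries. The authors used HISAT2 for mapping of cleaned reads on TM-1 and StringTie for quantification (for both, the version was not given in the sources used here), and deposited FPKM for 100881 rows. No counts were used, and the FPKM values do not step in whole reads, so count-based tests could not be applied, the fragments behind a value are unknown, library read totals were not used here, and the 3 libraries of a group limit the precision. Coordinates and sequences were not used here.

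The values were tested as log2(FPKM + 1), pseudocount 1, for genes with at least 1 FPKM in at least 3 libraries of the tissue (59282 genes in root, 54835 in leaf, 69603 over both). limma 3.58.1 in R 4.3.3 was fitted with a mean for every genotype over 21 libraries per tissue, or for every genotype and tissue over all 42, with a mean-variance trend. Tests were 2-sided, with p adjusted by Benjamini-Hochberg over all genes of a comparison. Scripts in R and Python 3.11.15 (numpy 2.4.6, pandas 2.3.3, matplotlib 3.10.9) were tested on simulated data. The members, lists, tests and rules were chosen with earlier results of these data known. Named genes were 4 markers of the pathway (Gh_D05G2199, Gh_A05G1970, Gh_Sca065142G01, Gh_D02G0399), the highest member of each role per tissue, the largest members beyond both parents (8 per tissue), called between hybrids and inbreds (6 per tissue) and between inbreds and A (4 per tissue), and the largest called gene of each other list. Other genes named were chosen after their values were seen.

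Replicate numbers did not pair genotypes: residuals of same-numbered libraries correlated at a median of 7.15e-05 (root) and -0.00756 (leaf). Taken as 1 plant, the root and leaf library sharing a number correlated at a median of 0.0094. The highest correlation between 2 libraries was 0.962, so none was a repeat of another. The alternatives comprised no filter, quantile normalization, a pseudocount of 0.1, a replicate block, no variance trend, each replicate left out, only the libraries of a triad, only inbreds of lower Q20 (D in root, C and D in leaf), genotype means as units, and each hybrid left out.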

Additional observations from a re-analysis of the deposited data

Results flagged for a closer look

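The difference between hybrids and inbreds was tested in root against leaf with an interaction term over all 42 libraries, adjusted over 69603 genes by limma. It differed for 10 of 52 members, given as the root difference minus the leaf difference in log2(FPKM + 1). Values below 0 were found for Gh_Sca065142G01 (-2.81), Gh_D05G2199 (-2.01), Gh_A05G1970 (-1.62) and Gh_A05G1971 (-1.11). Values above 0 were found for Gh_D05G0219 (1.51), Gh_D11G1301 (1.43), Gh_A13G1875 (1.18), Gh_A05G0155 (1.12), Gh_D01G1467 (1.04) and Gh_D01G0718 (1.001). Gh_Sca065142G01, Gh_D05G2199, Gh_A05G1970 and Gh_A05G0155 held at most 1.17 FPKM in any leaf, and Gh_D01G1467 and Gh_D01G0718 at most 0.599 FPKM in any root, where the pseudocount of 1 keeps differences near 0. Gh_D05G0219 held at most 1.32 FPKM in any leaf and Gh_D11G1301 at most 1.43 FPKM in any root, close to the same limit. Gh_A13G1875 and Gh_A05G1971 were expressed in both tissues. Groups of 3 libraries were too small for a search for single outlying libraries.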

How the results depend on the processing

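Of 15 counts, 7 stayed within 1.5 times under every alternative. With a pseudocount of 0.1, the members called between hybrids and inbreds became 9 in root and 8 in leaf, those beyond both parents 2 in H leaf and 4 in L leaf. In leaf, hybrids against inbreds gave 0 calls with only inbreds of lower Q20, 2 with genotype means as units and 2 with hybrid M left out. Leaving out each replicate in turn gave 1 to 4 members beyond both parents in H root, 1 to 6 in M root, 3 to 4 in L root, 0 to 1 in H leaf and 1 to 2 in L leaf, 1 to 3 calls of B against A in root, and 3 to 5 calls of hybrids against inbreds in leaf. Of 135 differences of named members, 86 were called under every alternative and 0 changed direction. Losses came mostly from leaving out a replicate (26, 15 and 30 of 135 without replicates 1, 2 and 3), where 2 libraries a genotype remained, and from inbreds of lower Q20 (6 of 10). With a pseudocount of 0.1, Gh_Sca065142G01 was no longer called in H or L against A, or in L against D. The replicate block gave 5 members beyond both parents in H root, 5 calls of hybrids against inbreds in root and 27 of root against leaf (plant as block), and it ended no call of a named member. How many fragments lie behind a value near 1 FPKM is not known from the table.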
